A study of Homo sapiens with 9 samples.

Results

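The 8 genes described here encode components of the phosphoinositide 3-kinase (PI3K) and AKT pathway: the insulin receptor substrate adaptors IRS1 and IRS2, the PI3K catalytic subunits PIK3CA and PIK3CB, the PI3K regulatory subunit PIK3R1, the kinases AKT1 and AKT2, and the lipid phosphatase INPP4B. They were picked by gene symbol from a table of 19930 genes. The table holds RNA sequencing of 9 libraries labelled as the MDA-MB-453 cell line, an established human breast cancer line, in 3 groups of 3 libraries. The groups X453_1 and X453_2 are labelled Linc00673 knockdown and X453_NC is labelled control. Linc00673 is a long noncoding RNA, and the numbering of the groups matches the study's small interfering RNAs (siRNAs) si-LINC00673-1, si-LINC00673-2 and si-NC. All 3 groups were transfected with a cationic lipid (Lipofectamine), and the cells were harvested 48 h later. Each knockdown group therefore stands for 1 siRNA in 1 cell line. No source states that the 3 libraries of a group came from separate cultures, so the P values measure the spread between these libraries, which may be technical. The level of Linc00673 itself was not analysed here.

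PI3K is recruited to activated receptors, either directly or through adaptors such as IRS1 and IRS2, and its catalytic subunits phosphorylate a membrane inositol lipid. The lipid product draws AKT to the membrane, where AKT is activated and phosphorylates many substrates, among them the FOXO transcription factors, which are then kept out of the nucleus. Inositol phosphatases, INPP4B included, remove phosphates from these lipids. The pathway is often altered in breast cancer, by mutation of PIK3CA or loss of INPP4B, and FOXO factors in turn are known to drive transcription of genes of the pathway such as IRS2.

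The values are FPKM (fragments mapped to a gene, scaled by its length and by the mapped fragments of the library), and the depth read from the spacing of low values was 23.3 to 27.3 M fragments per library. In the libraries labelled MDA-MB-453, only 4 of 8 markers of a luminal breast line had a mean of at least 1 FPKM. KRT8, KRT18 and EPCAM, general markers of luminal epithelium, were at means of 3394, 1981 and 310.2 FPKM and ERBB2 at 14.98 FPKM. FOXA1, known as a marker of luminal breast lines, did not exceed 0.04 FPKM in any library, so the data go against the label for this marker. Of 8 markers of other cell types, 2 had a mean of at least 1 FPKM, CD68 and COL1A1. The summed level of those 8 markers was 37.5 to 38.8 FPKM in X453_NC, 52.4 to 55.9 FPKM in X453_1 and 61.5 to 67.0 FPKM in X453_2, while PTPRC, COL3A1 and PECAM1 stayed at or below 0.12 FPKM in all libraries. Most of this sum was CD68 alone, at means of 33.6, 48.2 and 57.4 FPKM in X453_NC, X453_1 and X453_2. COL1A1 was at 3.83, 5.54 and 6.47 FPKM. The summed level of the 8 luminal markers was 6110 to 6588 FPKM in X453_NC, 5034 to 5535 FPKM in X453_1 and 5131 to 5582 FPKM in X453_2. KRT18 fell in both knockdown groups (log2 -0.46 and -0.48, limma adjusted P = 5.5e-06 and 2.6e-06). ERBB2 (-0.25 and -0.45, adjusted P = 6.3e-04 and 8.9e-06) and KRT8 (-0.17 and -0.115, adjusted P = 0.024 and 0.089) were lower too. EPCAM went the other way (0.17 and 0.13, adjusted P = 3.3e-04 and 0.0014). The means of GATA3 (0.43, 0.77 and 0.64 FPKM in X453_NC, X453_1 and X453_2) and SPDEF (0.73, 0.94 and 1.02 FPKM) were also higher in the knockdown groups. The part of these shifts in the results was not tested. In bulk RNA, fewer cells of a type and less RNA per cell cannot be told apart.

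The guide strands of the siRNAs, which define the 3 groups, and the miRNA that the study ties to Linc00673 are shown because a short guide can act on other mRNAs through its seed (bases 2 to 8, in capitals).
si-LINC00673-1: aGAAACCUcugauuccacctt
si-LINC00673-2: uUAUUAUUugagacagggucu
si-NC: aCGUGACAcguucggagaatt
hsa-miR-515-5p: uUCUCCAAaagaaagcacuuucug
The complements of the seeds were searched in the longest 3′ untranslated region of each gene in GENCODE release 29 (GRCh38), on the strand of the mRNA. For si-LINC00673-1 the letters AGGTTTC were found in none of the 8 genes and in 13.4% of the 11343 tested genes with such a region. For si-LINC00673-2 the letters AATAATA were found in PIK3CA (3 matches), PIK3CB (1), INPP4B (2) and IRS2 (1), and in 21.3% of those genes. PIK3R1, AKT1, AKT2 and IRS1 held no match for either Linc00673 guide. The si-NC letters TGTCACG were found in PIK3R1 (1 match) and in 3.16% of the genes, and those for miR-515-5p, TTGGAGA, in PIK3CA, PIK3CB, AKT2, INPP4B and IRS2 (1 match each) and in 18.8%. The site for si-LINC00673-2 in IRS2 and the site for miR-515-5p in AKT2 are given with their surroundings, with the matched letters in capitals, since these genes had the highest and the lowest fold change in the comparisons with X453_NC. The IRS2 match begins at base 698 of that region and the AKT2 match at base 259.
IRS2 site: ggattactaAATAATAattattata
AKT2 site: gttgggcggTTGGAGAttcaggttt
Over the 2419 tested genes that hold the si-LINC00673-2 letters, the median log2 fold change in X453_2 against X453_NC was -0.08, beside -0.11 in genes without them, and in X453_2 against X453_1 it was -0.13, beside -0.07. In X453_1 against X453_NC, neither of which is numbered for that guide, it was 0.06, beside -0.02. Over the 2133 tested genes that hold the miR-515-5p letters, the median was 0.035 in X453_1 against X453_NC, beside -0.013 in genes without them. In X453_2 against X453_NC it was -0.086, beside -0.109. The part of any of these matches in the fold changes was not tested.

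**Figure D1:**
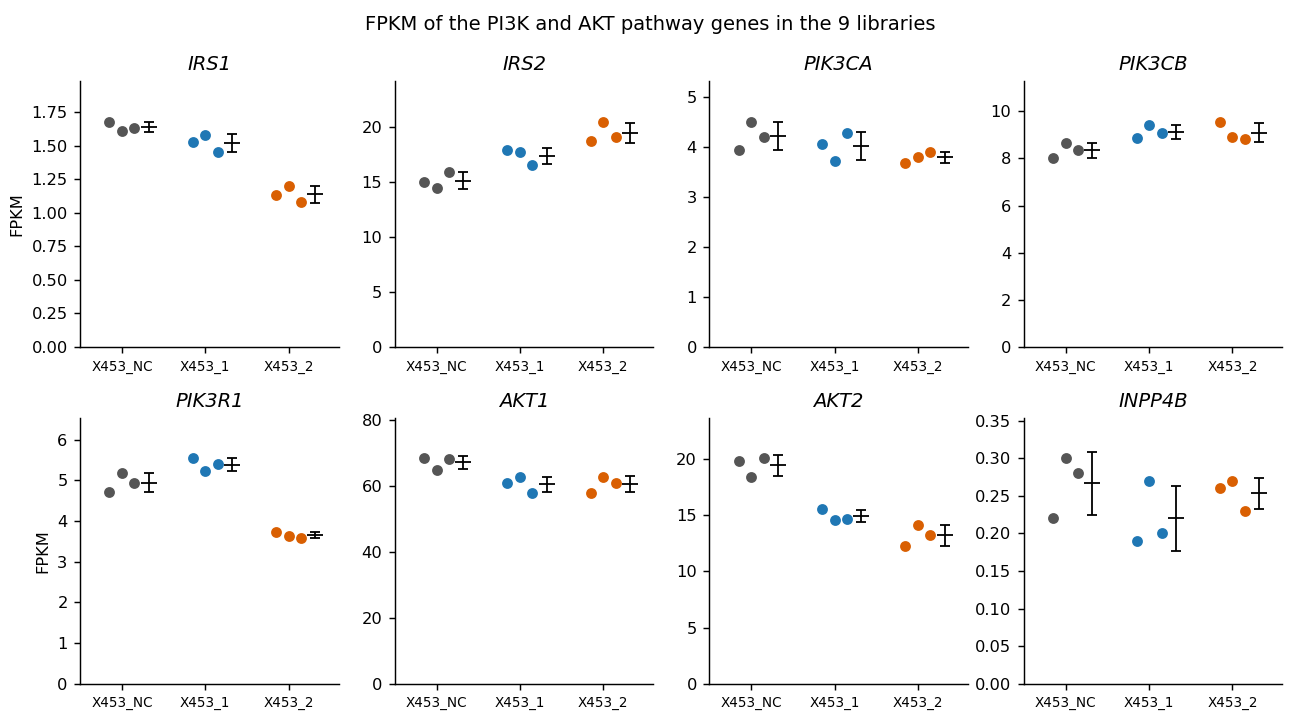
FPKM of the 8 genes (one panel each, linear axis from 0) in the 3 libraries of X453_NC (grey), X453_1 (blue) and X453_2 (orange), with the mean and SD (n = 3) as black bars. AKT2 is lower and IRS2 higher in all 6 knockdown libraries than in the control libraries, and PIK3R1 and IRS1 are lowest in X453_2.

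AKT2 mRNA was lower and IRS2 mRNA was higher in both knockdown groups than in X453_NC, and IRS1 and PIK3R1 mRNA were lower in X453_2. The group means of PIK3CA, PIK3CB and AKT1 stood at 89.9% to 109% of the X453_NC mean. INPP4B was below the filter of a mean of 1 FPKM, which left 7 of the 8 genes among the 12884 tested. A gene was called differentially expressed at a fold change of at least 1.3 (0.38 on the log2 scale) and P of at most 0.05, the criteria of the study, in a limma fit of log2(FPKM + 1) over all 9 libraries. In X453_1 against X453_NC, 0 of 7 genes were called (26.7% of all tested genes were). At any fold, 4 of 7 had an adjusted P (Benjamini-Hochberg) no higher than 0.05 (64.4% of all tested genes). An unadjusted limma P of at most 0.05 was reached by 5 of 7. Adjustment never lowers P, so at least 64.4% of all tested genes reached it too. In X453_2 against X453_NC, 1 of 7, AKT2, was called (34.0%) and 6 of 7 had an adjusted P of at most 0.05 (70.8%). In X453_2 against X453_1, 1 of 7, PIK3R1, was called (7.64%) and 4 of 7 had an adjusted P of at most 0.05 (44.0%). Both counts of called genes against X453_NC lay below the share over all tested genes. The libraries did not overlap between the groups for 6 of 7 genes in X453_1 against X453_NC (70.0% of all tested genes) and for 7 of 7 in X453_2 against X453_NC (73.0%). With 3 libraries against 3, the exact two-sided permutation test cannot give a P below 0.1. The median log2 fold change of the 7 genes was -0.06 for X453_1 and -0.15 for X453_2 against X453_NC, and that of all tested genes was 0.00 and -0.095. Both comparisons share the X453_NC libraries.

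Neither adaptor was called against X453_NC, and in X453_2 IRS1 was lower and IRS2 higher than in the control. IRS1 (chromosome 2, 227596033 to 227663506, minus strand, GRCh37.p13) couples the insulin and IGF1 receptors to PI3K. It was at 1.68, 1.61 and 1.63 FPKM in replicates 1, 2 and 3 of X453_NC, at 1.53, 1.58 and 1.45 FPKM in X453_1, and at 1.13, 1.20 and 1.08 FPKM in X453_2. All 3 libraries of X453_2 lay below the other 6. The mean of X453_2 was 69.3% of that of X453_NC. On the log2(FPKM + 1) scale the difference was -0.31 (95% CI -0.43 to -0.18, limma adjusted P = 8e-04), which missed the fold limit, and since the scale understates changes of low genes it was -0.49 with 0.1 FPKM added, past the limit. In X453_1 the difference was -0.07 (95% CI -0.20 to 0.06, adjusted P = 0.32). Against X453_1, X453_2 was lower by 0.24 (95% CI -0.37 to -0.11, adjusted P = 0.0079).

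IRS2 (chromosome 13, 110406184 to 110438914, minus strand) is the other adaptor of the insulin and IGF1 receptors and was the more abundant of the 2. It was at 14.96, 14.44 and 15.93 FPKM in X453_NC, at 17.89, 17.70 and 16.57 FPKM in X453_1, and at 18.75, 20.49 and 19.13 FPKM in X453_2. The 3 groups did not overlap, with X453_NC lowest and X453_2 highest. The log2 fold change against X453_NC was 0.19 in X453_1 (95% CI 0.08 to 0.30, limma adjusted P = 0.0065) and 0.34 in X453_2 (95% CI 0.24 to 0.45, adjusted P = 1.3e-04), both under the fold limit. In X453_2 the value was past the limit under median ratio scaling (0.45), after GC correction (0.56) and without X453_NC replicate 3 (0.38). IRS2 made up 90.2% ± 0.45 (SD, n = 3) of the summed FPKM of the 2 adaptors in X453_NC, 92.0% ± 0.16 in X453_1 and 94.5% ± 0.17 in X453_2.

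The promoter of IRS2, from 250 bases before the transcription start to 50 after it, is shown because FOXO factors are known to regulate IRS2 and because FOXO1 and FOXO3 differed between these groups. The sequence is from RefSeq (GRCh38.p14, chr13:109786534-109786833, minus strand, 5′ to 3′), and capitals mark TGTTTTG, a core spelling of insulin response elements.
IRS2 promoter: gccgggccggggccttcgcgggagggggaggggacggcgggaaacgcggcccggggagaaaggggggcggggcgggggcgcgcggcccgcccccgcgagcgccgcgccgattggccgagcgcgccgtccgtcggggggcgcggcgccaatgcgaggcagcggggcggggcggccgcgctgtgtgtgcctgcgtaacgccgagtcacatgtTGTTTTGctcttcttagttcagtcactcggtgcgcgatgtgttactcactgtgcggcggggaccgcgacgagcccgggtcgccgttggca
TGTTTTG was found at position -40 from the start. On either strand, it occurred in 4.92% of 35116 RefSeq promoters of that length, and in 1 of the 19 promoters that RefSeq gives for the 8 genes. GTAAACA, the FOXO consensus, which shares no match with TGTTTTG here, occurred in 3.42% of all promoters and in 1 of those 19, that of PIK3CA (chr3:179148107-179148406, plus strand), where it lay on the reverse strand at position -149 and reads TGTTTAC on the strand shown.
PIK3CA promoter stretch: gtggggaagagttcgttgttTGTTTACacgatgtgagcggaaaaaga
These matches are letters in a window and carry no measurement of binding.

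Neither catalytic subunit was called in any comparison. PIK3CA (chromosome 3, 178866311 to 178957881, plus strand), the p110 alpha subunit, was at 3.93, 4.50 and 4.20 FPKM in X453_NC, at 4.05, 3.71 and 4.27 FPKM in X453_1, and at 3.68, 3.79 and 3.89 FPKM in X453_2. X453_1 overlapped both other groups, while the X453_2 libraries were all below those of X453_NC. The log2 fold change was -0.06 in X453_1 (95% CI -0.19 to 0.07, limma adjusted P = 0.42) and -0.12 in X453_2 (95% CI -0.25 to 0.01, adjusted P = 0.089), intervals that leave out a fold of 1.3 in either direction. Without X453_NC replicate 1 the X453_2 value was -0.16 (adjusted P = 0.046), and after GC correction the X453_1 value was -0.15 (adjusted P = 0.016). KCNMB3, listed on the opposite strand at a mean of 0.66 FPKM, overlaps PIK3CA, and whether reads were counted by strand is not given in the sources used here. PIK3CB (chromosome 3, 138371540 to 138553771, minus strand), the p110 beta subunit, was at 8, 8.66 and 8.36 FPKM in X453_NC, at 8.85, 9.43 and 9.08 FPKM in X453_1, and at 9.56, 8.92 and 8.81 FPKM in X453_2. All 6 knockdown libraries lay above the control libraries. The log2 fold change was 0.12 in X453_1 (95% CI 0.01 to 0.22, adjusted P = 0.046) and 0.11 in X453_2 (95% CI 0.01 to 0.21, adjusted P = 0.048), both near the threshold. The adjusted P for X453_1 was above 0.05 without X453_1 replicate 2 or 3, X453_2 replicate 2 or 3, or X453_NC replicate 1 or 3 (0.052 to 0.15), and that for X453_2 without any 1 of the X453_1 libraries, X453_2 replicate 1 or 2, or X453_NC replicate 1 or 3 (0.055 to 0.16). Both were above it with a replicate block (0.083 and 0.084), and after GC correction the X453_1 value was 0.04 (adjusted P = 0.39). Between X453_2 and X453_1 the log2 difference of PIK3CB was -0.00 (95% CI -0.11 to 0.10), and 0.13 after GC correction (adjusted P = 0.012).

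PIK3R1 (chromosome 5, 67511584 to 67597649, plus strand) encodes p85 alpha and its shorter forms, which hold and stabilise the catalytic subunits. It was at 4.71, 5.19 and 4.93 FPKM in X453_NC, at 5.54, 5.23 and 5.39 FPKM in X453_1, and at 3.72, 3.64 and 3.57 FPKM in X453_2. The siRNA groups lay on opposite sides of the control with no overlap. The lowest X453_1 library (5.23 FPKM) was close to the highest of X453_NC (5.19 FPKM). PIK3R1 was called in X453_2 against X453_1, with a log2 fold change of -0.46 (95% CI -0.56 to -0.36, limma adjusted P = 8.4e-05), and X453_2 stood at 67.6% of the X453_1 mean. Against X453_NC the log2 fold change was -0.36 in X453_2 (95% CI -0.46 to -0.25, adjusted P = 6.8e-05), just under the fold limit, which it passed without X453_NC replicate 1 (-0.38) and with 0.1 FPKM added (-0.43). In X453_1 it was 0.10 (95% CI 0.00 to 0.21, adjusted P = 0.071). It was 0.13 without X453_NC replicate 2 (adjusted P = 0.038) and 0.03 after GC correction (adjusted P = 0.52). With a replicate block the adjusted P was 0.13. The call between the siRNA groups was lost under median ratio scaling (-0.37) and after GC correction (-0.33).

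AKT1 was the most abundant of the 8 genes in every library. It is located on chromosome 14 (105235686 to 105262080, minus strand), and was at 68.32, 64.85 and 68.17 FPKM in X453_NC, at 60.82, 62.55 and 57.85 FPKM in X453_1, and at 57.80, 62.65 and 60.92 FPKM in X453_2. The knockdown libraries were all below the control libraries, and the 2 knockdown groups overlapped. The log2 fold change was -0.15 in X453_1 (95% CI -0.24 to -0.06, limma adjusted P = 0.0090) and -0.15 in X453_2 (95% CI -0.24 to -0.06, adjusted P = 0.0082), and the knockdown groups differed by 0.00 (95% CI -0.09 to 0.09). This direction did not hold across the processing: after a correction for GC content AKT1 was 0.14 and 0.18 higher than in X453_NC (adjusted P = 6.7e-04 and 7.1e-05), and under median ratio scaling the X453_2 difference was -0.04 (adjusted P = 0.38). The GC content of AKT1 is 62.1%, above that of 90.7% of the tested genes with a GC value. Over the quintile of tested genes richest in GC, the median log2 fold change was -0.29 in X453_1 and -0.34 in X453_2, and over the poorest quintile it was 0.08 and -0.05.

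AKT2 (chromosome 19, 40736224 to 40791302, minus strand), the isoform best known from insulin-stimulated glucose uptake, fell in X453_2. It was at 19.88, 18.39 and 20.08 FPKM in X453_NC, at 15.52, 14.54 and 14.68 FPKM in X453_1, and at 12.30, 14.14 and 13.21 FPKM in X453_2. The 3 groups did not overlap, with X453_NC highest and X453_2 lowest. The means were 76.7% and 68.0% of the X453_NC mean. The log2 fold change in X453_2 was -0.53 (95% CI -0.65 to -0.40, limma adjusted P = 1.4e-05). In X453_1 it was -0.36 (95% CI -0.48 to -0.24, adjusted P = 2.3e-04), under the fold limit, and it reached the limit without X453_1 replicate 1 (-0.39), without X453_NC replicate 2 (-0.40) and with 0.1 FPKM added (-0.38). After GC correction AKT2 was lower by less, -0.23 in X453_1 and -0.32 in X453_2, and was no longer called in X453_2 (GC content 58.3%, above 78.8% of genes). AKT2 made up 22.5% ± 0.34 (SD, n = 3) of the summed FPKM of AKT1 and AKT2 in X453_NC, 19.8% ± 0.82 in X453_1 and 17.9% ± 0.44 in X453_2.

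INPP4B (chromosome 4, 142944313 to 143767688, minus strand), the phosphatase that removes a phosphate from the inositol lipid downstream of PI3K and a known tumour suppressor of the breast, was the lowest of the 8 genes. It was at 0.22, 0.30 and 0.28 FPKM in X453_NC, at 0.19, 0.27 and 0.20 FPKM in X453_1, and at 0.26, 0.27 and 0.23 FPKM in X453_2, an estimated 43 to 68 fragments per library. The groups overlapped. Without the filter on low values, the log2 fold change was -0.05 in X453_1 and -0.02 in X453_2 (limma adjusted P = 0.24 and 0.77), a scale on which values this low can hardly differ.

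**Figure D2:**
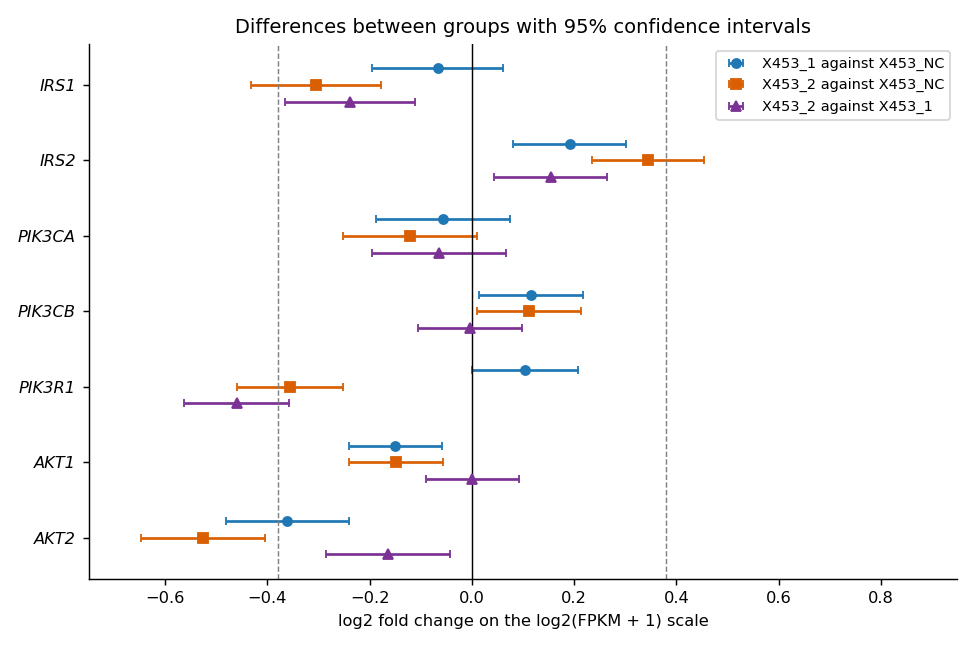
Log2 fold change of the 7 tested genes on the log2(FPKM + 1) scale with 95% confidence intervals from limma (9 libraries) for X453_1 against X453_NC (circles), X453_2 against X453_NC (squares) and X453_2 against X453_1 (triangles), with the fold limit of 1.3 as dashed lines. The AKT2 value of X453_2 against X453_NC (-0.53) and the PIK3R1 value of X453_2 against X453_1 (-0.46) lie beyond the limit.

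FPKM is scaled by length, so the levels of the genes can be ordered. By mean FPKM in X453_NC the order was AKT1 (67.1 ± 1.96, SD, n = 3), AKT2 (19.5 ± 0.92), IRS2 (15.1 ± 0.76), PIK3CB (8.34 ± 0.33), PIK3R1 (4.94 ± 0.24), PIK3CA (4.21 ± 0.28), IRS1 (1.64 ± 0.04) and INPP4B (0.27 ± 0.04). No neighbours in this order overlapped in X453_NC. In X453_1 and X453_2, IRS2 (17.4 and 19.5 FPKM) stood above AKT2 (14.9 and 13.2 FPKM), again without overlap. In X453_2, PIK3R1 (3.57 to 3.72 FPKM) and PIK3CA (3.68 to 3.89 FPKM) overlapped and their order could not be set. Over the 9 libraries AKT1 exceeded 91.7% of the tested genes in mean FPKM, IRS2 69.1%, AKT2 66.6% and IRS1 6.57%. PIK3CA made up 23.2% ± 0.38 (SD, n = 3) of the summed FPKM of the catalytic subunits PIK3CA, PIK3CB and PIK3CD in X453_NC, 20.1% ± 1.5 in X453_1 and 20.6% ± 0.78 in X453_2. The sum itself was 18.1, 19.9 and 18.4 FPKM in X453_NC, X453_1 and X453_2, and PIK3CD was at 5.55, 6.79 and 5.53 FPKM. PIK3R1 made up 16.6% ± 0.88 of the regulatory subunits PIK3R1, PIK3R2 and PIK3R3 in X453_NC, 16% ± 0.79 in X453_1 and 13.3% ± 0.52 in X453_2.

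The genes whose profile over the 9 libraries was nearest to that of AKT2, by the mean absolute difference of log2(FPKM + 1) deviations from the gene's own X453_NC mean, were TKFC (0.020), PGP (0.025) and PLXNB1 (0.028). For IRS2, the gene with the largest mean increase, they were IRAK2 (0.032), LAMB3 (0.034) and KDM5C (0.036). IRAK2, for instance, was 0.20 higher in X453_1 and 0.31 higher in X453_2 on the log2 scale, and TKFC was lower by 0.36 and 0.53.

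**Figure D3:**
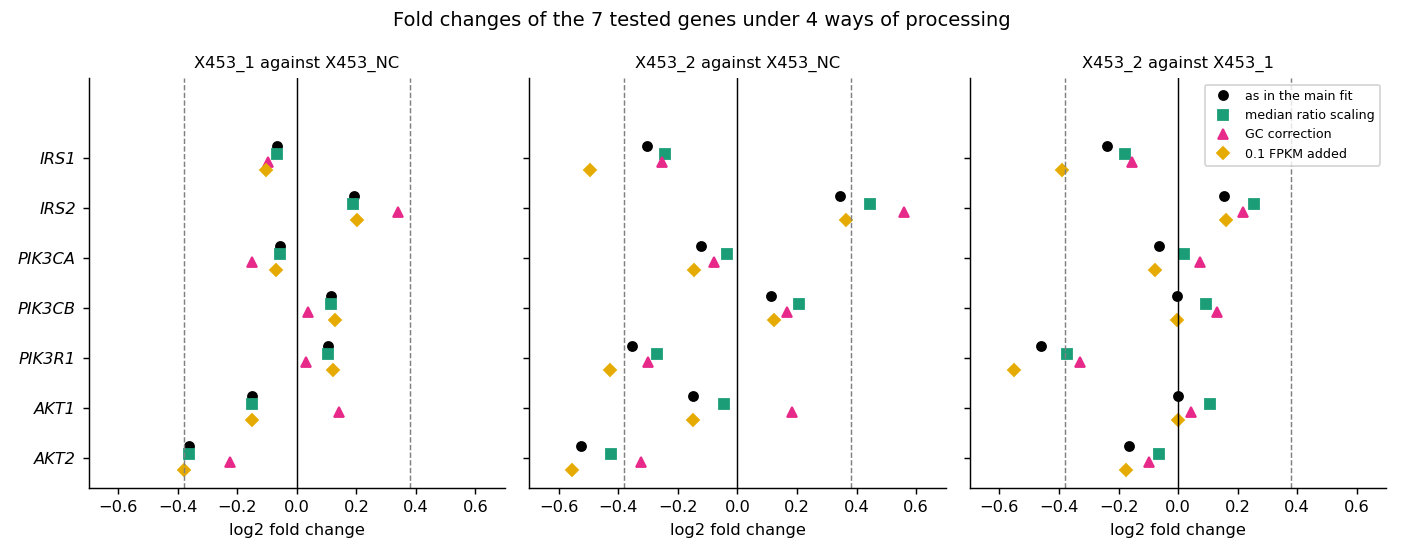
Log2 fold change of the 7 tested genes in the 3 comparisons as fitted (circles), after median ratio scaling (squares), after a correction for GC content (triangles) and with 0.1 FPKM added in place of 1 (diamonds), with the fold limit of 1.3 as dashed lines. AKT1 changes side against X453_NC after the GC correction (0.14 and 0.18), while AKT2 stays below 0 and IRS2 above 0 in all panels.

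Around the 8 genes, 68 further genes of the pathway were grouped into 7 lists by role, chosen with earlier results of these data known. Of these, 58 were tested. In X453_1 against X453_NC, 10 rose (11.1% of all tested genes did) and 8 fell (15.6%), and in X453_2 against X453_NC 10 rose (11.0%) and 13 fell (23.1%). In X453_2 the split was 13 and 11 under median ratio scaling (15.3% and 17.4% of all tested genes) and 14 and 7 after GC correction (15.3% and 14.6%), and in X453_1 it was 10 and 5 after GC correction (11.2% and 11.2%). The median log2 fold change of the 58 genes was 0.02 in X453_1 and -0.06 in X453_2, and the latter was 0.03 under median ratio scaling and 0.14 after GC correction. Of these genes, 7 rose in both siRNA groups (7.65% of all tested genes did) and 7 fell in both (13.6%).

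Upstream of PI3K, 0 of 6 tested receptors and adaptors were called in X453_1 (median -0.01), beside 26.7% of all tested genes. An unadjusted limma P of at most 0.05 was reached by 4 of them, and by at least 64.4% of all tested genes. In X453_2, 1 of the 6 fell (median 0.04), beside 23.1% of all tested genes. The gene that fell was SHC1, an adaptor named here after its value was seen (-0.44), and under median ratio scaling or GC correction 0 of 6 were called in X453_2. INSR, the insulin receptor, was at 3.47 ± 0.29, 3.19 ± 0.09 and 3.31 ± 0.09 FPKM (SD, n = 3) in X453_NC, X453_1 and X453_2, with adjusted P of 0.17 and 0.45 in limma. Of the other PI3K subunits, 0 of 3 tested were called in either comparison (medians 0.18 and -0.00), beside 26.7% and 34.0% of all tested genes. An unadjusted limma P of at most 0.05 was reached by 2 of the 3 in X453_1 and 0 in X453_2. The shares over all tested genes were at least 64.4% and 70.8%. PIK3R2, the p85 beta subunit and the most abundant regulatory subunit, was at 23.9 ± 0.59, 27.1 ± 1.0 and 23.1 ± 0.61 FPKM, a log2 difference of 0.18 in X453_1 (adjusted P = 0.0022) and of -0.05 in X453_2 (adjusted P = 0.27), with 0.57 and 0.37 after GC correction. PIK3R3, the p55 gamma subunit, was at 0.90 ± 0.12, 1.25 ± 0.13 and 0.75 ± 0.08 FPKM and was not tested. Like PIK3R1, PIK3R2 was lower in X453_2 than in X453_1, by 0.22 (adjusted P = 0.0013), under the fold limit.

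Of 7 tested phosphoinositide phosphatases, 1 rose (11.1% of all tested genes did) and 2 fell (15.6%) in X453_1. In X453_2, 3 fell (23.1%). INPP5E fell from 4.61 ± 0.45 FPKM (SD, n = 3) to 2.74 ± 0.19 and 1.93 ± 0.37, and INPP5J from 3.94 ± 0.48 to 2.22 ± 0.23 and 1.86 ± 0.05. Both remove a phosphate from PI3K's lipid product, and neither was called in X453_1 after GC correction (-0.33 and -0.32). INPP4A, the paralog of INPP4B, was at 3.29 ± 0.30, 3.09 ± 0.10 and 2.84 ± 0.03 FPKM (limma adjusted P = 0.33 and 0.032), above INPP4B in every library. In X453_2 the limma adjusted P of INPP4A was 0.25 under median ratio scaling and 0.067 after GC correction.

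Among the kinases, phosphatases and inhibitors that act on AKT, 1 of 9 rose (11.1% of all tested genes did) and 3 fell (15.6%) in X453_1. In X453_2, 3 fell (23.1%). The medians were 0.06 in X453_1 and -0.16 in X453_2. TRIB3, a pseudokinase that binds AKT and is also a stress-response gene, fell from 102.1 ± 3.80 FPKM to 31.4 ± 1.62 in X453_1 and 26.8 ± 0.33 in X453_2 (SD, n = 3), the largest mean change among the pathway genes called in both groups (log2 -1.67 and -1.89, limma adjusted P = 5.7e-09 and 6.8e-10). MLST8, a subunit of both mTOR complexes, fell by 0.67 and 0.78 and after GC correction was not called in either group (-0.26 and -0.35). DEPTOR, an inhibitor of mTOR, fell by 0.66 and 0.73. PDPK1, which phosphorylates AKT, was at 7.68 ± 0.35, 8.06 ± 0.28 and 6.70 ± 0.28 FPKM (adjusted P = 0.26 and 0.0076). In X453_2 its limma adjusted P was 0.15 under median ratio scaling and 0.06 after GC correction. Downstream, 2 of 11 genes of the TSC and mTORC1 branch rose in X453_1 (11.1% of all tested genes did). In X453_2, 2 rose (11.0%) and 3 fell (23.1%). The medians were 0.04 and -0.10, the latter 0.17 after GC correction. RPTOR, the scaffold of mTORC1, rose by 0.40 and 0.51.

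Of 9 tested AKT substrates, 2 rose (11.1% of all tested genes did) and 2 fell (15.6%) in X453_1. In X453_2, 3 rose (11.0%) and 1 fell (23.1%). The medians were 0.13 and -0.08, the latter 0.24 after GC correction. FOXO1 rose from 2.56 ± 0.26 FPKM to 4.60 ± 0.45 and 4.70 ± 0.06 (log2 0.65 and 0.68, limma adjusted P = 2.5e-05 and 1.4e-05, SD, n = 3), and FOXO3 from 11.1 ± 0.28 FPKM to 16.4 ± 0.34 and 16.9 ± 0.45 (0.52 and 0.56, adjusted P = 1.5e-06 and 5.9e-07). FOXO4 went the other way and fell by 0.49 and 0.44, the latter not called under median ratio scaling (-0.35) or after GC correction (-0.30). Of 13 genes known as FOXO targets, 4 rose (11.1% of all tested genes did) and 1 fell (15.6%) in X453_1. In X453_2, 5 rose (11.0%) and 2 fell (23.1%). The medians were 0.02 and 0.17, the former -0.05 after GC correction. With that correction 3 rose and 2 fell in X453_1 (11.2% and 11.2% of all tested genes). KLF6, a zinc finger transcription factor, rose by 1.01 and 1.41, and BCL6, a transcriptional repressor, by 0.75 and 1.03. ERBB3, a receptor whose phosphorylated tail binds p85, fell by 0.56 and 1.06. These are mRNA levels, and no phosphorylation of AKT or FOXO was measured in these libraries.

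**Figure D4:**
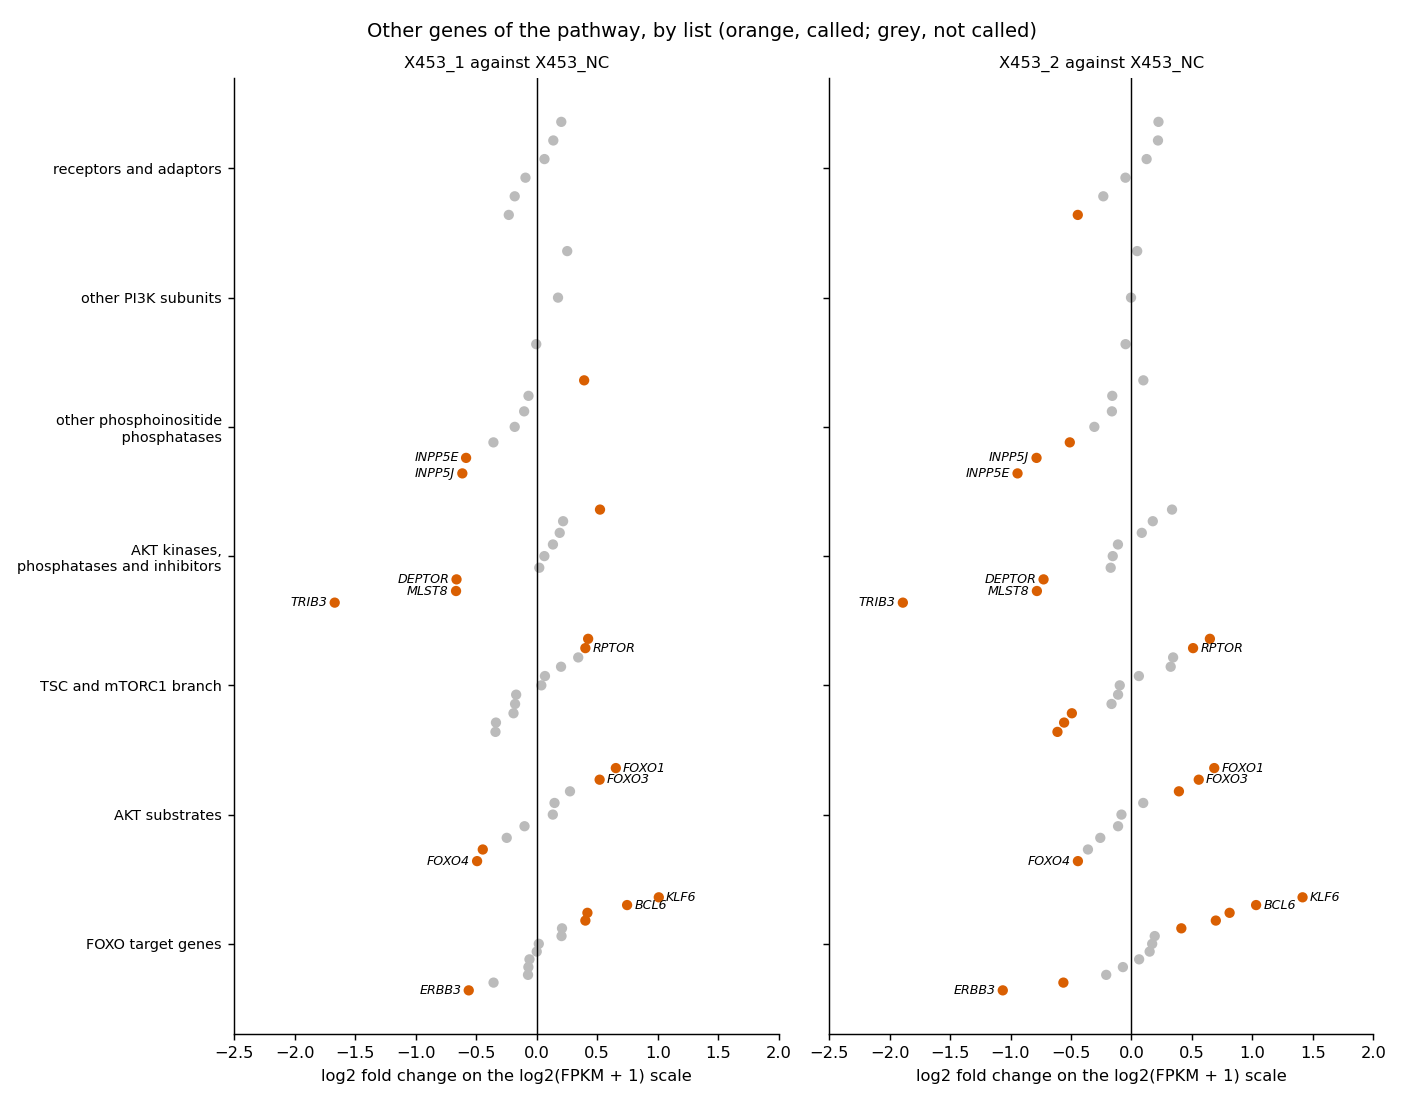
Log2 fold change on the log2(FPKM + 1) scale of the 58 tested genes of the 7 lists in X453_1 and X453_2 against X453_NC, 1 point per gene, orange where called and grey where not, with up to 3 genes per list that were called in both groups labelled. TRIB3 is farthest to the left (-1.67 and -1.89) and KLF6 farthest to the right (1.01 and 1.41), and in most lists points lie on both sides of 0.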

How the data were processed

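RNA of 9 libraries was sequenced by the study on the BGISEQ-500 platform. The authors deposited 1 table of FPKM per gene (19930 genes with values, 4 lines without), and 9 FPKM columns are given a second time with equal values. Per the labels' processing notes, Bowtie2 (version 2) and genome build GRCh37.p13 were used. The counting tool is not given in the sources used here. The table's log2 ratios, P values and q values between groups were not used. The depth of each library was inferred from the spacing of low FPKM values (effective length offset 90 bases) as 23.3 to 27.3 M fragments. By group it was 25.4 to 27.3 M in X453_NC, 24.1 to 25.4 M in X453_1 and 23.3 to 24.7 M in X453_2.

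The 8 genes and all lists were chosen with earlier results of these data known. log2(FPKM + 1) of the 12884 genes whose mean reached 1 FPKM was fitted with limma 3.58.1 (R 4.3.3, trend) with the group as factor and 6 residual degrees of freedom, and adjusted by Benjamini-Hochberg over all tested genes. The fit was tested on simulated data. A fold change understates changes of low genes on this scale. Named genes were the 8 genes, up to 3 per list called in the same direction against X453_NC in both groups with the largest mean change, FOXO1, FOXO3, INPP4A, PIK3R2, PIK3R3, PDPK1 and INSR, and the 3 nearest profiles of 2 of the genes. A few other genes that the rule names are not reported here. The overlap of a gene's groups was read from the lowest and highest FPKM of each group. Exact two-sided permutation tests of the difference in mean log2(FPKM + 1) were run beside it for the 8 genes. Alternatives were 0.1 FPKM added, no filter or a minimum of 5 FPKM, other call rules, median ratio scaling, a lowess correction for GC content (11380 genes with a GC value), only the 2 groups compared, a replicate block and each library left out. The replicate labels repeat between groups but the deviations of same-numbered libraries correlated between -0.239 and 0.104, so no shared effect was visible. The labels do not say what the numbers stand for, and correlations over so few libraries cannot settle whether they were paired. Sequences were matched to RefSeq GRCh38.p14 promoters, GENCODE release 29 and the study's siRNA list, never by the table's GRCh37.p13 coordinates. Python 3.11.15 with pandas 2.3.3, numpy 2.4.6, scipy 1.17.1 and matplotlib 3.10.9 was used.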

Additional observations from a re-analysis of the deposited data

Results flagged for a closer look

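The direct limma comparison of X453_2 with X453_1 gave an adjusted P of at most 0.05 in 4 of the 7 tested genes. Over all tested genes the share was 44.0%. In these 4 genes the effects of the 2 siRNA groups against the shared control differed. PIK3R1 differed by -0.46 on the log2 scale (adjusted P = 8.4e-05), with the groups on opposite sides of X453_NC. The X453_1 side was weak, with a limma adjusted P against X453_NC of 0.071, and of 0.52 after GC correction. IRS1 differed by -0.24 (adjusted P = 0.0079). AKT2 differed by -0.16 (adjusted P = 0.033) and IRS2 by 0.15 (adjusted P = 0.029). Over the alternatives the adjusted P ranged from 5.8e-05 to 0.0010 for PIK3R1 and from 0.0056 to 0.034 for IRS1. For AKT2 it ranged from 0.016 to 0.38. It was above 0.05 under median ratio scaling (0.38, with a difference of -0.06), after GC correction (0.054), with no filter (0.055), with a replicate block (0.071), without X453_1 replicate 1, 2 or 3 (0.11, 0.052 and 0.061) and without X453_2 replicate 1 or 3 (0.094 and 0.072). For IRS2 it ranged from 8.1e-04 to 0.11, and was above 0.05 with a replicate block (0.065), without X453_1 replicate 2 or 3 (0.052 and 0.11) and without X453_2 replicate 2 or 3 (0.11 and 0.051). Groups of 3 libraries are too small for a check of single outlying libraries.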

How the results depend on the processing

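Of the fold changes of the 7 genes under the alternatives, 302 kept their direction and side of the call, 10 became calls, 3 lost a call and 12 changed sign. GC correction turned AKT1 in X453_1 (0.14) and X453_2 (0.18) against X453_NC. In X453_2 against X453_1, PIK3CA turned under median ratio scaling (0.021) and GC correction (0.073), and so did PIK3CB (0.093 and 0.13). With 1 library left out, values of that comparison ran from -0.036 to 0.018 for PIK3CB and from -0.029 to 0.033 for AKT1. The number of the 7 genes called, 0 in X453_1, 1 in X453_2 and 1 between the siRNA groups, was 5, 6 and 4 with no fold limit, 1, 3 and 2 with 0.1 FPKM added, and 0 in X453_2 and between the siRNA groups with a fold limit of 2. Median ratio scaling gave 2 in X453_2 and 0 between the siRNA groups, where a minimum of 5 FPKM (4 genes tested) and GC correction gave 0 as well. Leaving out each library gave 0 to 1 in X453_1 (1 without X453_1 replicate 1 or X453_NC replicate 2), 1 to 2 in X453_2 (2 without X453_NC replicate 1 or 3) and 1 between the siRNA groups. Of the 58 further genes, 18, 23 and 8 were called, 45, 46 and 36 with no fold limit and 2, 4 and 0 with a fold limit of 2. With no fold limit, at least 64.4%, 70.8% and 44.0% of all tested genes were called in the 3 comparisons. The replicate block left the counts of the 7 genes at 0, 1 and 1 and changed no call, though the adjusted P of AKT2 and IRS2 between the siRNA groups rose to 0.071 and 0.065, and that of PIK3CB against X453_NC to 0.083 and 0.084. The cause of these changes was not tested beyond the settings' own construction.

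FPKM rounded to 2 decimals limits INPP4B, and 3 libraries per group limit every test. With 1 siRNA per group, an effect of the guide and of the knockdown cannot be told apart.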
